A study of Mus musculus with 5 samples.

Results

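The CDK inhibitor genes of the Cip/Kip and Ink4 families were read in sorted mouse hematopoietic stem cells (HSCs) on 9 probe sets, each annotated to exactly 1 of the 7 genes Cdkn1a, Cdkn1b, Cdkn1c, Cdkn2a, Cdkn2b, Cdkn2c and Cdkn2d. The platform annotation gives 18193 genes at least 1 such probe set, and all 7 inhibitors are among them. The values came from 5 Affymetrix expression arrays, 2 hybridised with RNA from Atxn1L null HSCs and 3 with RNA from WT HSCs. The Atxn1L null mice carried a null allele of Ataxin-1-like, a paralog of the ataxia protein ATXN1, with no Cre driver named, so other cells of these mice were not spared. The WT mice are labelled wild type, and both groups were of strain C57Bl/6 and 6 to 8 weeks old, with no treatment named. HSCs of both genotypes were side population cells, which exclude Hoechst dye, without lineage markers and with c-Kit, Sca-1 and CD150. Cells of several mice were pooled for each array, and the labels do not say how many mice stood behind a pool, so p-values measure only the spread between pools.

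CDK inhibitors restrain the kinases that drive cells out of G1. The Ink4 proteins bind the monomeric kinases CDK4 and CDK6 and keep them from their D-type cyclins, whereas the Cip/Kip proteins bind whole cyclin-CDK complexes, chiefly those of CDK2. Both routes keep the retinoblastoma proteins in the state that holds back E2F transcription, and several of the inhibitors are known from knockout mice to limit the cycling or the exhaustion of HSCs. The question put to the arrays was which of these brakes HSCs transcribe and whether any of them was altered in Atxn1L null HSCs, in a study of how Atxn1L bears on HSC number and proliferation.

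Each value is a log2 GCRMA signal, a background-corrected and quantile-normalized summary of the probes of a set. A probe set is called bright here where its mean was at least 5 in at least 1 genotype, a line that was reached by 7236 of the 18193 genes (39.8%) when each gene was read by its brightest probe set. The array medians lay between 3.03 and 3.07. Brightness depends on the affinity of the probes as well as on the transcript, so the levels below are not ranked between genes. The targeted gene was low in the null pools: its probe set 1455507_s_at read 3.23 and 3.65 in Atxn1L null HSCs and 6.31, 6.52 and 5.74 in WT HSCs. Its probe set 1435921_at read 3.08 and 3.99 in Atxn1L null and 6.80, 6.69 and 4.98 in WT HSCs. A further one, 1445624_at, had a mean of 1.32 in both genotypes. The HSC marker Procr read 13.23 and 13.54 in Atxn1L null and 13.55, 13.64 and 13.54 in WT HSCs, and 5 of 6 measured HSC markers were bright. The exception was Slamf1, which encodes the sorted antigen CD150 and read 3.86 and 3.91 in Atxn1L null and 3.87, 3.90 and just under 4 in WT HSCs. Of 13 measured markers of other cells, the 5 bright ones were Mpo, Pf4, Itga2b, Flt3 and Cd34, and the T cell marker Cd3e read 1.87 to 1.88 on all arrays. The granulocyte and monocyte marker Mpo was far above the line, at 12.42 and 11.75 in Atxn1L null and 10.93, 11.52 and 11.98 in WT HSCs, with overlap. The megakaryocyte marker Pf4 had a mean of 10.95 in Atxn1L null and 10.99 in WT HSCs.

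HSCs of both genotypes carried bright signal for 4 of the 7 inhibitor genes. These were all 3 Cip/Kip genes, Cdkn1a (p21), Cdkn1b (p27) and Cdkn1c (p57), and 1 of the 4 Ink4 genes, Cdkn2c (p18). Cdkn2a (p16 and p19Arf), Cdkn2b (p15) and Cdkn2d (p19Ink4d, which is not p19Arf) stayed under the line. No inhibitor was called higher or lower in Atxn1L null HSCs. Of the 9 probe sets, 0 passed the criterion, which asked for a fold of 1.5 or more together with an unadjusted p no higher than 0.05 in limma's test. Of all 45037 probe sets tested 2.38% passed, 1.13% higher and 1.25% lower in Atxn1L null HSCs, and of all bright probe sets 7.44% passed, against 0 of the 5 bright ones of inhibitors. None of the 9 met the p alone (5.59% of all), the fold alone (5.08% of all) or an adjusted p under 0.05 (0.00222% of all), and the smallest unadjusted p was 0.148. RNA of whole pools was measured, so that fewer cells with a transcript and less transcript per cell cannot be told apart.

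**Figure D1:**
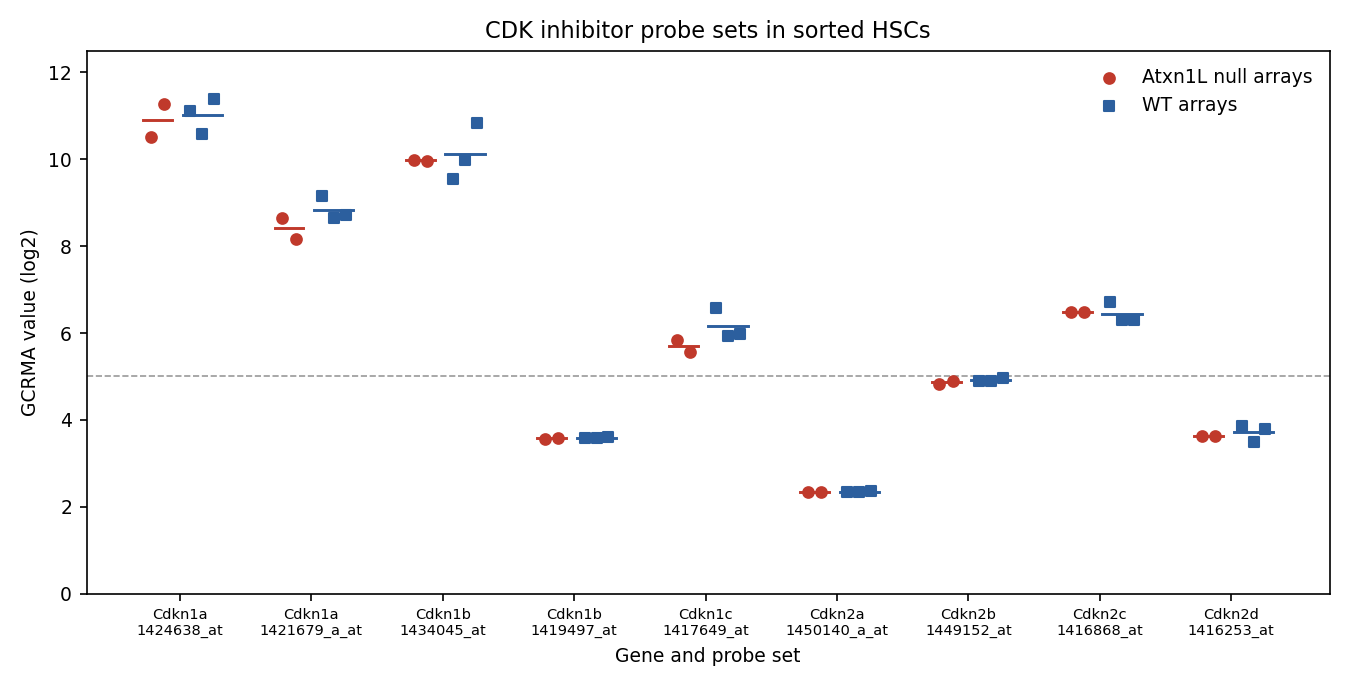
Log2 GCRMA values (vertical axis) of the 9 CDK inhibitor probe sets (horizontal axis), with a point per array, Atxn1L null arrays as red circles left of WT arrays as blue squares, and short lines at the genotype means. The dashed line marks a value of 5: Cdkn1a, the brighter probe set of Cdkn1b, Cdkn1c and Cdkn2c lie above it, and the genotypes overlap on every probe set but that of Cdkn1c.

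Cdkn1a encodes p21, the inhibitor that p53 induces after DNA damage and that limits the entry of HSCs into cycle. Its probe set 1424638_at read 10.52 and 11.28 in Atxn1L null HSCs and 11.11, 10.59 and 11.39 in WT HSCs. The lowest and the second highest value both came from null pools, and the genotypes overlapped. The means were 10.90 ± 0.53 (SD, n = 2) in Atxn1L null and 11.03 ± 0.41 (SD, n = 3) in WT HSCs, a log2 difference of -0.13 with a 95% interval of -1.18 to 0.92 (standard error 0.37, limma adjusted p = 1). The other probe set, 1421679_a_at, read 8.66 and 8.17 in Atxn1L null HSCs and 9.15, 8.64 and 8.72 in WT HSCs. Here the second null pool was the lowest of the 5 arrays, whereas on 1424638_at it was the second highest, so the probe sets did not order the pools alike. The difference was -0.42 (95% interval -1.12 to 0.27, limma adjusted p = 1), and the first null pool lay inside the WT range.

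Cdkn1a has 2 annotated starts in RefSeq (build GRCm38.p6), and the array does not say which of them its signal came from. The stretch of 150 bases before each start is shown because these are the promoters of the inhibitor with bright signal on both of its probe sets. Capitals mark a p53 element, searched as the 20-letter p53 consensus with at most 1 mismatch, and GC boxes, GGGCGG on either strand. The p53 search was chosen after the sequences were seen. Both motifs were searched in the 250 bases before each start and do not overlap each other here.
Cdkn1a upstream start, chr17:29090829-29090978, plus strand: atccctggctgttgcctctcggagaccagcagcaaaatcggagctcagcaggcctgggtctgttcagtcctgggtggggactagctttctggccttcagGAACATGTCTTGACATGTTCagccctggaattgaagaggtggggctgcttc
Cdkn1a downstream start, chr17:29093619-29093768, plus strand: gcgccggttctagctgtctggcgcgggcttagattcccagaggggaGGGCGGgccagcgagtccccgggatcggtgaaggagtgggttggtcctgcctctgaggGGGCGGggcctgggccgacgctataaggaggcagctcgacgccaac
The upstream start had the p53 element, which 25 of 32851 promoters of the table (0.0761%) hold in their window, and 2 CpG dinucleotides. The downstream start had 2 GC boxes, a motif present in 32.7% of all promoters, and 19 CpG dinucleotides. Of the 9 promoters matched to 6 of the inhibitor genes, 5 had a GC box and 1 the p53 element. No promoter was matched for Cdkn1c. A match of letters describes the sequence and says nothing of binding in these cells.

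Cdkn1b encodes p27, which binds cyclin E-CDK2 and accumulates in resting cells. Its bright probe set 1434045_at read 9.99 and 9.96 in Atxn1L null HSCs and 9.55, 9.99 and 10.83 in WT HSCs. The null pools were nearly equal and lay inside the WT range, which was the widest of any inhibitor probe set. The first null pool and the second WT pool had an identical value, 9.99243. The means were 9.97 ± 0.03 (SD, n = 2) in Atxn1L null and 10.12 ± 0.65 (SD, n = 3) in WT HSCs, and the difference of -0.15 had a 95% interval of -1.37 to 1.08 (limma adjusted p = 1). The second probe set, 1419497_at, read 3.56 and 3.58 in Atxn1L null HSCs and 3.57 to 3.61 in WT HSCs. This probe set, built on the RefSeq transcript, stayed dim while the one built on an expressed sequence tag was bright in the same arrays.

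Cdkn1c encodes p57, an imprinted inhibitor expressed from the maternal allele that keeps HSCs quiescent. It was the only inhibitor whose genotypes did not overlap. Its single probe set, 1417649_at, read 5.83 and 5.57 in Atxn1L null HSCs and 6.58, 5.94 and 5.98 in WT HSCs. Both null pools were below every WT pool, but the first null pool missed the lowest WT pool narrowly and the first WT pool stood apart from the other two. The means were 5.70 ± 0.19 (SD, n = 2) in Atxn1L null and 6.16 ± 0.36 (SD, n = 3) in WT HSCs, a log2 difference of -0.46 (standard error 0.25, 95% interval -1.19 to 0.26, limma adjusted p = 1). That is a 1.38-fold lower mean in Atxn1L null HSCs, short of the fold and of the p required.

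Among all probe sets tested, 7.5% had both null values below every WT value, 6.75% had them above and 14.2% were separated in either direction, against 1 of the 9 inhibitor probe sets. A larger difference than that of Cdkn1c in either direction was seen on 24% of all bright probe sets. Without the first WT array the difference shrank to -0.26, and it was -0.59 without the first null array. The same pools differed in an RNA control, in that the 3' signal of Gapdh exceeded the 5' signal by 7.27 ± 0.09 (SD, n = 2) in Atxn1L null and 5.94 ± 0.07 (SD, n = 3) in WT HSCs. Its part in the difference of Cdkn1c was not tested.

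The profile of Cdkn1c over the 5 arrays was set against those of 10959 bright probe sets of other genes, each centred on its own mean. The most similar were those of Wwox, an oxidoreductase gene at a common fragile site, with a root mean square difference of 0.0323, Cdk1, the mitotic kinase, with 0.0343, and Nek2, a centrosomal kinase, with 0.0458. Cdk1 read 6.23 and 5.88 in Atxn1L null HSCs and 6.89, 6.29 and 6.29 in WT HSCs, so that its first WT pool was the highest as well. None of the 3 passed the criterion, and with 5 arrays such likeness is a description of these pools only.

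Cdkn2c encodes p18, the Ink4 inhibitor whose loss in mice increases the repopulating activity of HSCs. It was the bright member of its family and the bright inhibitor with the most closely matching null pools. Its probe set 1416868_at read 6.49 and 6.49 in Atxn1L null HSCs and 6.73, 6.30 and 6.31 in WT HSCs. The null pools lay between the first WT pool and the other two. The means were 6.49 in Atxn1L null, with an SD under 0.01, and 6.44 ± 0.24 (SD, n = 3) in WT HSCs. The log2 difference of 0.04 was the only positive one among the 9 inhibitor probe sets (standard error 0.16, 95% interval -0.42 to 0.50, limma adjusted p = 1). This interval lay inside the 1.5-fold limits of ±0.585 on the log2 scale, so that among the bright inhibitors a change of that size was outside the interval for Cdkn2c only.

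The remaining Ink4 genes gave little signal. Cdkn2b, which encodes p15, a target of TGFβ, read 4.82 and 4.90 in Atxn1L null HSCs and 4.90, 4.90 and 4.97 in WT HSCs, just under the line of 5. Cdkn2d read 3.63 and 3.63 in Atxn1L null HSCs and 3.85, 3.49 and 3.79 in WT HSCs. For Cdkn2b and Cdkn2d the fitted differences were -0.07 and -0.08, and the genotypes overlapped or met on both probe sets, with the first null pool the lowest for Cdkn2b. With 1 array left out the difference of Cdkn2b ran from -0.11 without the second null array to -0.023 without the first. That of Cdkn2d was -0.0081 without the first WT array and -0.19 without the second, there at an unadjusted limma p of 0.00843 and under the fold. Both null pools had an identical Cdkn2d value, 3.63109, with an SD of 0, so that p drew on no measured spread between the null pools. Among the inhibitor probe sets, 4 had a value shared by more than 1 array. The source of such ties was not tested. Near the background a real difference in transcript can be compressed, so the narrow intervals of the dim probe sets bound the signal and not the transcript.

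Cdkn2a yields p16, an inhibitor of CDK4 and CDK6, and, from another first exon and reading frame, p19Arf, which stabilises p53. Its transcripts are repressed by the Polycomb protein BMI1 in HSCs. The 1 probe set, 1450140_a_at, read 2.34 and 2.34 in Atxn1L null HSCs and 2.33, 2.34 and 2.35 in WT HSCs. The 5 arrays spanned 0.0197 on the log2 scale, and only 12.2% of all probe sets had a smaller range. This is a flat reading near the floor of the scale, like that of the T cell gene Cd3e, and no Cdkn2a signal was detected in either genotype. The annotation does not say whether the probes read p16, p19Arf or both.

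The promoters of the 2 starts of Cdkn2a are shown because the gene has a single flat probe set, and which start it reads is not known. They are taken from RefSeq (build GRCm38.p6), again 150 bases before each start, with GC boxes in capitals.
Cdkn2a upstream start, chr4:89294620-89294769, minus strand: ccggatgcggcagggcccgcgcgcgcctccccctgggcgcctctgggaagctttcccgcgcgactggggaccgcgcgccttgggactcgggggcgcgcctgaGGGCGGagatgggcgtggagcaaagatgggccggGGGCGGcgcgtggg
Cdkn2a downstream start, chr4:89282193-89282342, minus strand: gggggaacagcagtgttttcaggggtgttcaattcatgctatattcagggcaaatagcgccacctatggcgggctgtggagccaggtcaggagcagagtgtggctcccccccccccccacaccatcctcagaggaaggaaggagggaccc
The upstream window of 250 bases held 2 GC boxes and 40 CpG dinucleotides, a number reached by 1.31% of all promoters. The downstream window held no GC box and 7 CpG dinucleotides, where the median of all promoters was 6.

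**Figure D2:**
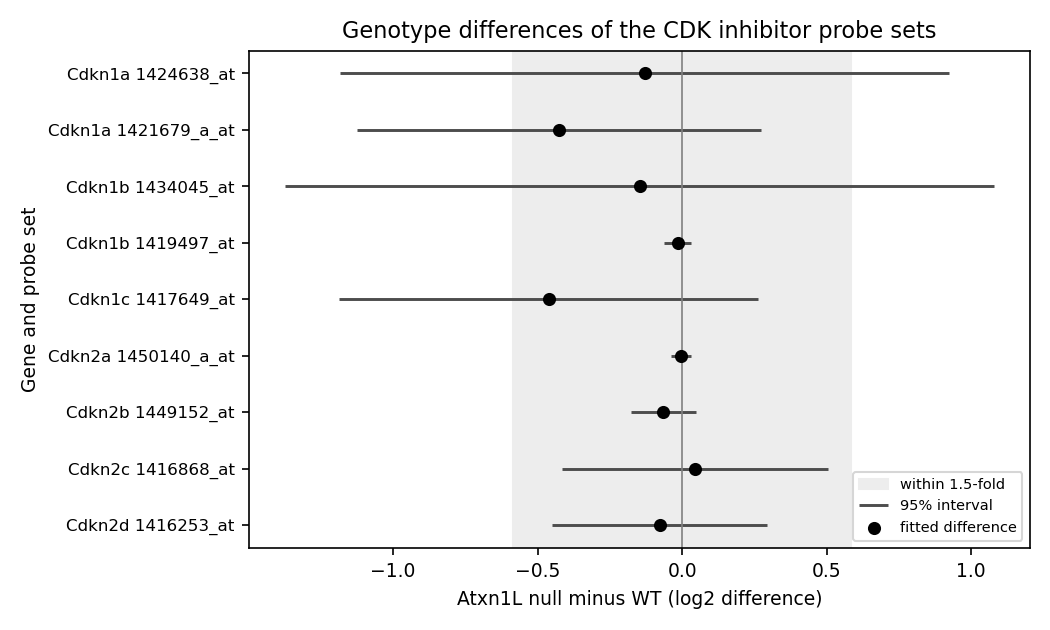
Log2 difference of Atxn1L null minus WT HSCs (horizontal axis) for the 9 CDK inhibitor probe sets (vertical axis), with the fitted value as a point and its 95% interval as a line. Every interval includes 0, the grey band marks differences under 1.5-fold, and the intervals of Cdkn1a, Cdkn1c and the bright probe set of Cdkn1b reach past it.

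Over the 9 probe sets 8 differences were negative, with a median of -0.08, against a median of -0.003 over all probe sets tested. Negative differences were the majority among all genes too, as 8259 of 18193, each by its brightest probe set, had a positive one. The 8 include dim readings, such as -0.005 for Cdkn2a and -0.015 for Cdkn1b on 1419497_at. Of the 5 bright inhibitor probe sets 4 were negative, and the median size of their differences was 0.15, against 0.25 over all bright probe sets. The unadjusted limma p of the bright probe sets was 0.745 and 0.163 for Cdkn1a, 0.751 for Cdkn1b, 0.148 for Cdkn1c and 0.803 for Cdkn2c. At the spread observed, a p of 0.05 would have required a 2.34-fold difference of Cdkn1b on 1434045_at, a 2.07-fold difference of Cdkn1a on 1424638_at and a 1.62-fold one on 1421679_a_at. It would have required a 1.65-fold difference of Cdkn1c and a 1.38-fold one of Cdkn2c. Smaller changes of these inhibitors were not detectable in 2 pools against 3, and no exact test of such groups can give a p below 0.1.

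**Figure D3:**
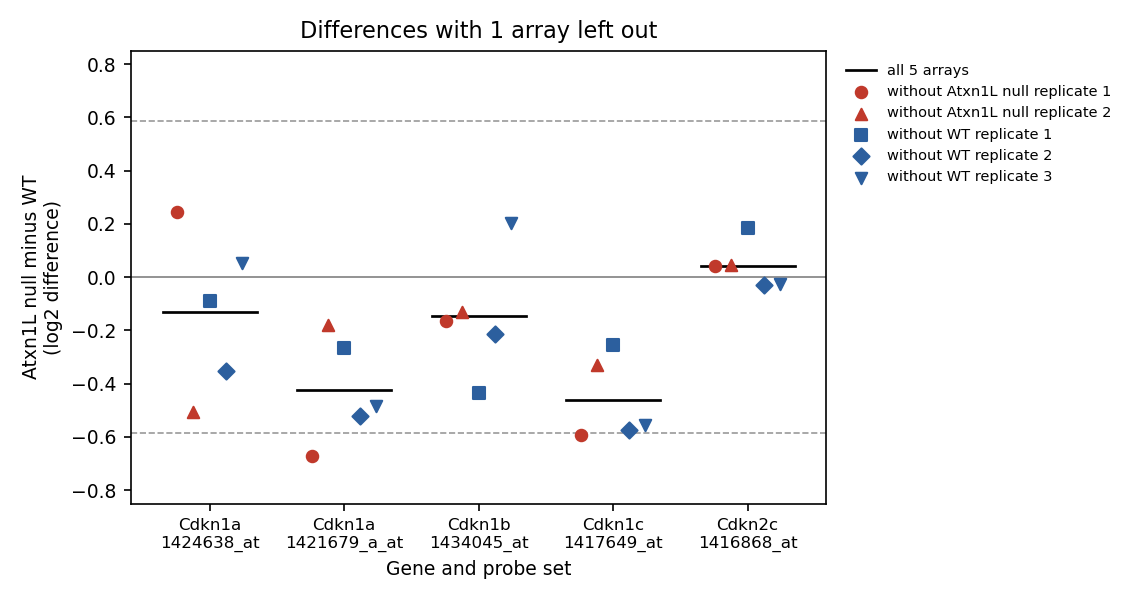
Log2 difference of Atxn1L null minus WT HSCs (vertical axis) for the 5 bright CDK inhibitor probe sets (horizontal axis), with all arrays (black bar) and with 1 array left out (red symbols for Atxn1L null arrays, blue for WT arrays). Dashed lines mark 1.5-fold. Cdkn1c and the probe set 1421679_a_at of Cdkn1a stay below 0 in all 5 cases, while the other three change sign.

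With 1 array left out in turn, no inhibitor passed the criterion in any of the 5 cases. The difference of Cdkn1a on 1421679_a_at ran from -0.67 to -0.18 and that of Cdkn1c from -0.59 to -0.26. On 1424638_at Cdkn1a ran from -0.51 without the second null array to 0.25 without the first. Cdkn1b on 1434045_at changed sign without the third WT array, to 0.20, and Cdkn2c, at 0.04 with all arrays, was -0.028 without the second and -0.025 without the third WT array. Without the first WT array the difference of Cdkn2c was 0.18 at an unadjusted p of 0.000249 in limma, still under the fold. That p drew on very little spread, with null pools at 6.490 and 6.487 and the remaining WT pools at 6.301 and 6.308.

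The genes around the inhibitors were read in 5 lists, each gene by its brightest probe set. Of 55 measured genes 2 were higher and 0 lower in Atxn1L null HSCs, where 3% of all genes passed, 1.57% higher and 1.43% lower. The number called was 6 without the first or the second WT array, 1 without the third, 2 without the first null array and 4 without the second. Genes lower in Atxn1L null HSCs were among them in 3 of these cases, namely E2f1 and Skp2 without the second WT array, Ddb1 without the first null array and Cdk2 without the second null array. Cdk4, the kinase that all Ink4 proteins bind, rose in Atxn1L null HSCs. It read 9.93 and 9.75 in Atxn1L null HSCs and 9.27, 9.29 and 8.96 in WT HSCs, and every null pool was above every WT pool. The difference was 1.59-fold, or 0.67 ± 0.13 on the log2 scale (standard error), at a limma adjusted p of 0.544. Of its 3 probe sets 1 passed, with differences of 0.21 to 0.67, and the call ended without the third WT array, without the first null array, with averaged probe sets, with array weights and with the replicate number as a block.

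Of the 9 measured G1 kinases and cyclins, Cdk4 alone passed, and the median difference was -0.02. Cdk2, the chief kinase target of the Cip/Kip proteins, named here after its values were seen, read 3.38 and 4.52 in Atxn1L null HSCs and 5.02, 4.66 and 4.85 in WT HSCs. Both null pools were below every WT pool, but Cdk2 did not pass, at a difference of -0.89 on the log2 scale with a standard error of 0.40 and a limma adjusted p of 1. Its mean was under 5 in both genotypes, and its other probe set gave a difference of 0.05. Cdk6, the other Ink4 partner, also named after its values were seen, read 9.55 and 9.15 in Atxn1L null HSCs and 9.96, 9.08 and 9.48 in WT HSCs. Its genotypes overlapped. The D-type cyclin Ccnd2 read 13.09 and 13.09 in Atxn1L null and 13.09, 13.20 and 13.04 in WT HSCs, and Ccnd1 9.83 and 10.25 in Atxn1L null and 9.53, 9.91 and 9.86 in WT HSCs, without passing. Over the 7 probe sets of Ccnd2 the differences ran from -0.64 to 0.13, and 0 passed.

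Of the 8 retinoblastoma and E2F genes 0 passed, with a median difference of 0.19. E2f1, an activator of S phase genes, read 8.07 and 8.75 in Atxn1L null and 9.69, 8.61 and 9.61 in WT HSCs, the second null pool lying within the WT range. E2f2, also an activator, stood at a mean of 6.55 in Atxn1L null and 6.71 in WT HSCs, and E2f3 at 6.81 in Atxn1L null and 6.24 in WT HSCs. Without the fold, 5 of the 55 genes over all lists met a p of at most 0.05 in limma's test, where 5.59% of all probe sets did. The 55 genes were read by their brightest probe set and the 5.59% by every probe set, so these shares are unlike. The lists were brighter than the array, with 81.8% of their genes bright against 39.8% of all genes. Rb1 was among the 5, and all 5 were higher in Atxn1L null HSCs on the probe set used. The 2 probe sets of Rb1 differed in sign, with differences of -0.45 and 0.46.

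Of 11 measured proliferation genes 1 rose and 0 fell. Of the 11 differences 9 were positive, with a median of 0.40, against 8259 positive ones among all 18193 genes. The negative ones were those of Cdk1 (-0.43, both null pools below every WT pool) and Ccnb2 (-0.12). For some genes the sign depended on the probe set: differences ran from -0.31 to 0.33 for Top2a, -0.62 to 0.20 for Mcm7 and -0.01 to 0.55 for Mcm3. The signal of Gapdh, 7.27 higher at its 3' than its 5' end in Atxn1L null and 5.94 higher in WT HSCs, separated the same pools, and its part in these differences was not tested. Mki67, the marker of cycling cells, read 10.71 and 10.41 in Atxn1L null HSCs and 9.75, 9.77 and 9.59 in WT HSCs. The rise was 1.81-fold, 0.86 ± 0.12 on the log2 scale (standard error), with a limma adjusted p of 0.384, and it was called in all 5 cases with 1 array left out. Pcna, the sliding clamp of DNA replication, read 12.57 and 12.56 in Atxn1L null and 12.82, 12.49 and 12.23 in WT HSCs. Mcm5, a subunit of the replicative helicase, read 12.09 and 12.05 in Atxn1L null and 11.86, 11.62 and 11.42 in WT HSCs, without overlap but under the required fold.

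Of 17 measured transcriptional regulators of the inhibitor genes 0 passed, and the median difference was 0.06. Smad3, a transducer of TGFβ, read 11.17 and 11.20 in Atxn1L null and 11.17 to 11.49 in WT HSCs. Klf4, an activator of Cdkn1a, read 11.15 and 10.92 in Atxn1L null and 10.21 to 10.95 in WT HSCs. Bmi1, the repressor of Cdkn2a, read 9.75 and 9.48 in Atxn1L null HSCs and 9.08, 9.63 and 9.50 in WT HSCs, with overlap. No probe set of its own was at hand for Trp53.

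Of 10 measured genes for the turnover of the inhibitor proteins 0 passed, with a median difference of -0.01. Cks1b, a cofactor of SKP2 in the degradation of p27, read 12.96 and 12.85 in Atxn1L null and 12.91, 12.68 and 12.21 in WT HSCs. Skp1 read 11.05 and 10.67 in Atxn1L null and 10.09 to 10.65 in WT HSCs, and Cul1, the scaffold of the same ligase, 9.41 and 9.81 in Atxn1L null and 9.58 to 10.12 in WT HSCs. The protein levels that these ligases set were not measured.

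**Figure D4:**
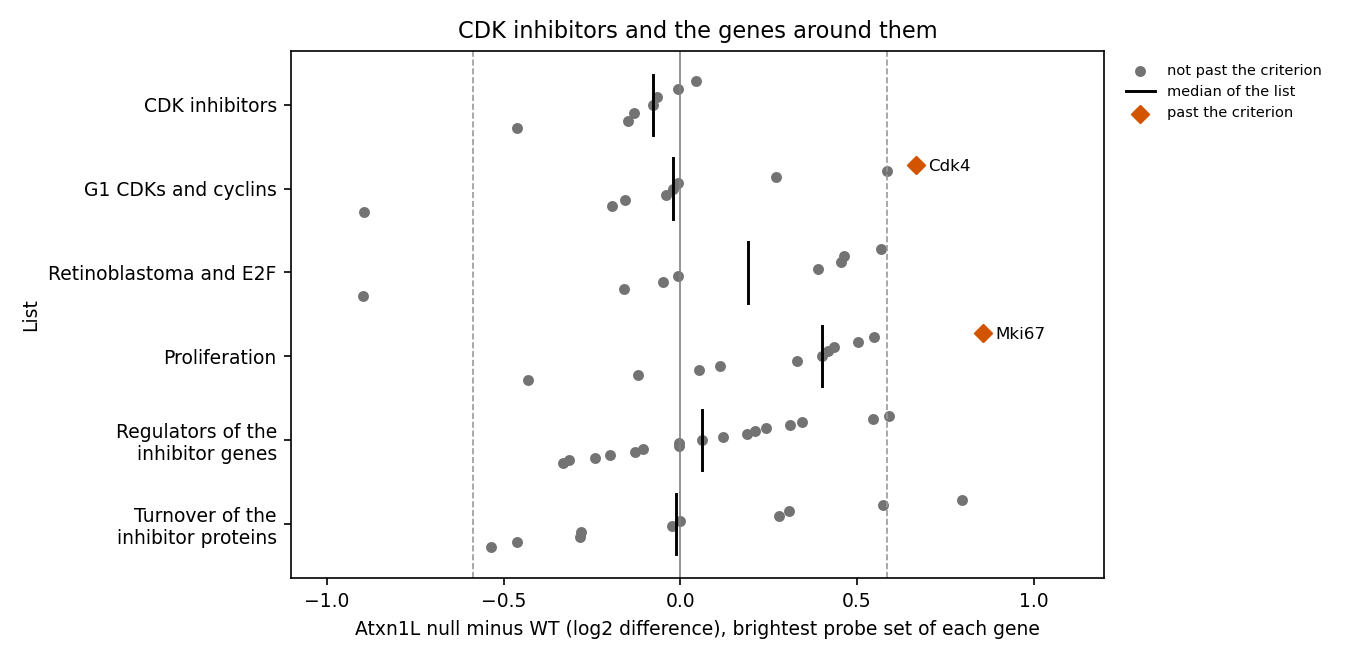
Log2 difference of Atxn1L null minus WT HSCs (horizontal axis) for the 7 CDK inhibitor genes and 55 genes around them in 5 lists (vertical axis), each gene by its brightest probe set, with a bar at each list's median. Dashed lines mark 1.5-fold. Cdk4 and Mki67, marked by orange diamonds, passed the criterion, and all 7 inhibitors lie between -0.46 and 0.04.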

How the data were processed

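RNA of pooled HSCs was amplified by T7-based in vitro transcription and hybridised to Affymetrix mouse arrays. The authors made the deposited log2 values with GCRMA. Its version is not given in these sources, and the log base was inferred from the span of the values. Amplification favours the 3' part of a transcript, and background correction flattens dim probe sets.

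Of 45101 probe sets, 64 Affymetrix controls were left out. The other 45037 were compared between genotypes with limma 3.58.1 (lmFit and eBayes, R 4.3.3), with Benjamini-Hochberg adjustment over all of them. Simulated data served only to check that planted differences came back at about their size on average. The criterion (unadjusted p up to 0.05, fold 1.5 or more) followed the paper's text. Probe sets were named from the platform annotation when it gave 1 gene. The members and lists were chosen with earlier results of these data known. All members were named, and of each list the genes that passed and the brightest up to 3. Of 57 listed genes 2 had no probe set of their own. Promoters came from RefSeq.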

Additional observations from a re-analysis of the deposited data

How the results depend on the processing

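No CDK inhibitor gene passed under any alternative run, namely array weights, a robust variance trend, median centring, a second quantile normalization, removal of cross-hybridizing or of dim probe sets, other criteria, averaged probe sets, the replicate block and the removal of each array. Of 113 differences of single probe sets under alternatives, 103 kept their direction and 10 reversed. The robust variance trend, the adjusted p criterion and the removals of probe sets left each remaining difference as it was by design. Their entries among the 103 are therefore no check of direction. With array weights, whose estimation stopped before it converged, Cdkn1a on 1424638_at was 0.31 and Cdkn2d 0.15. With the replicate number as a block, Cdkn1a on 1424638_at was 0.053, Cdkn1b on 1434045_at 0.20 and Cdkn2c -0.025. The third WT array has no null array of its number, so the block gave the same differences as leaving that array out. These reversals were thus counted under both runs. With 1 array left out in turn, the differences on the same probe sets ran from -0.51 to 0.25 for Cdkn1a, -0.43 to 0.20 for Cdkn1b and -0.028 to 0.18 for Cdkn2c. Against 2 pathway genes called, 5 were called with array weights, 5 without the fold, 1 with the block, 1 with averaged probe sets, 0 at an adjusted p under 0.05, and 1 to 6 with 1 array left out. The cause was not tested. Of all probe sets, 1074 passed, 709 without the first WT array, 1948 without the second null array, 2517 without the fold and 1 at an adjusted p under 0.05. By averaged probe sets 257 genes passed, against 545 by the brightest. The block rests on numbers that the labels do not tie to a shared batch, and the deviations of same-numbered pools correlated at -0.05 and -0.31 over the 12517 probe sets with a mean over all arrays of at least 5. Under it Cdkn1a on 1421679_a_at had a difference of -0.49 at a limma p of 0.00226, under the fold. The same difference without the third WT array and without the block had a limma p of 0.216, so the small p rests on the block. Dim signal limits Cdkn2a, Cdkn2b and Cdkn2d.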
